A study of Mus musculus with 12 samples.

Results

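Smooth muscle cells (SMCs) of the descending thoracic aorta were compared with SMCs of the ascending aorta and arch in mice with induced, SMC-specific deletion of both type I and type II TGF-β receptors, for all genes of the deposited count matrix. The comparison was made of 6 of the 12 libraries of the series. These were the Tgfbr1/2iSMCKO libraries, which the labels number 1 to 3 in each segment. The ascending/arch and the descending library of one number were taken as one animal, and every difference below was taken within animals. The other 6 libraries came from GFPiSMC mice, were numbered likewise, and served as the receptor-intact reference. Tgfbr1/2iSMCKO mice were homozygous for floxed alleles of both receptors (Tgfbr1f/f and Tgfbr2f/f) and carried the tamoxifen-inducible *Myh11*-CreERT2 transgene with the mT/mG reporter, which switches cells from red to green fluorescence once Cre has acted. GFPiSMC mice carried this Cre and reporter without floxed receptors. Mice of both lines were on C57BL/6J, were given tamoxifen for 5 days, and were studied at 12 weeks of age. The labels name a schedule from 4 weeks (1 mg/d) and one from 11 weeks (2 mg/d), and the methods place the cells of these libraries a week after receptor disruption, which is the schedule from 11 weeks. Cre is driven by a smooth muscle promoter and the transgene lies on the Y chromosome, so that only male mice could be used. Only cells in which the reporter had been switched, GFP+ cells, were sorted, from segments digested in the cold.

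The aorta does not have a single embryonic origin. SMCs of the ascending aorta and arch descend mainly from the cardiac neural crest and the second heart field, whereas SMCs of the descending aorta descend from somitic mesoderm. Transcription factors of the pharyngeal arches and outflow tract, such as *Hand2*, *Dlx5*, *Msx2*, and *Tbx20*, are known for patterning the first of these regions. Hox genes, which lie in 4 clusters and are used in the order in which they lie along the chromosome, mark position along the trunk, with low-numbered genes active nearer the head and higher-numbered ones farther back.

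Library totals were 20467027 to 30354994 counts for the 6 Tgfbr1/2iSMCKO libraries, from 11825 to 20000 sorted cells each, so that 1 CPM, a count scaled to a common library total by trimmed mean of M values (TMM), stood for 20.6 to 31.1 counts. The deleted genes were read first. *Tgfbr1* was at 197, 245, and 295 CPM in ascending/arch and 240.1, 258, and 272 CPM in descending SMCs of animals 1, 2, and 3, and *Tgfbr2* was at 94.7, 98.6, and 102 CPM in ascending/arch and 68, 81.9, and 87.9 CPM in descending SMCs. In GFPiSMC SMCs, *Tgfbr1* was at 240.3, 292, and 244 CPM in ascending/arch and 196, 199, and 238 CPM in descending SMCs, and *Tgfbr2* was at 109, 127, and 103 and 88.8, 111, and 97.5 CPM. The counts cover whole genes, including exons outside the floxed parts, so that they do not check the deletion. All smooth muscle markers were present, with a summed level of 39460 to 47414 CPM in ascending/arch and 40663 to 44547 CPM in descending Tgfbr1/2iSMCKO SMCs. The libraries of animal 3 stood apart from those of the other animals, with deviations from the segment means that went together (r = 0.665 over 9354 genes). Since whole populations of sorted cells were measured, fewer cells of a kind and less RNA per cell cannot be told apart.

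Of 19190 genes tested with the animal as a block by edgeR's quasi-likelihood test, 3 (0.0156%) passed an adjusted p of 0.05 and a 2-fold difference with the higher level in ascending/arch SMCs, and 0 (0%) did so with the higher level in descending SMCs. The 3 genes were *Hand2*, *Hand2os1*, and *Sla2*. An unadjusted p under 0.05 was reached by 558 genes (2.91%) with the higher level in ascending/arch SMCs and 350 (1.82%) with the higher level in descending SMCs. For 806 genes (4.2%) all 3 ascending/arch libraries lay above all 3 descending ones, and for 588 (3.06%) all 3 descending libraries lay above. The number of calls depended on the test. DESeq2 with the same terms called 149 genes (0.792%) higher in ascending/arch and 65 (0.345%) higher in descending SMCs, and limma-voom called 16 (0.0834%) and 4 (0.0208%). With all 12 libraries in the fit, edgeR called 15 (0.0672%) and 1 (0.00448%). Without animal 3, it called 19 and 9 genes, and *Hand2*, *Hand2os1*, and *Sla2* were among the 19. Below, "passed" refers to edgeR's adjusted p, log2 fold changes are descending over ascending/arch SMCs, and values in libraries stand in the order of animals 1, 2, and 3. All genes other than the 3 above are given by their levels, as a description.

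*Hand2*, a basic helix-loop-helix factor of the outflow tract and pharyngeal arches, had the smallest p of all genes. *Hand2* (ENSMUSG00000038193.4; GRCm38 chr8:57320983-57324633) was at 129.8, 102, and 67.7 CPM in ascending/arch and 1.78, 1.56, and 0.808 CPM in descending SMCs (mean ± SD 99.97 ± 31.2 against 1.38 ± 0.509 CPM, n = 3 animals). The lowest ascending/arch library lay far above the highest descending one (log2 fold change −6.18, SE 0.21, adjusted p = 0.00129). In GFPiSMC SMCs it was at 47.7, 61.4, and 68.9 CPM and 1.11, 3.57, and 6.42 CPM, a log2 fold change of −4.28 (SE 0.45). In each segment the levels of the genotypes overlapped, and the difference of the segment effect between the genotypes had an unadjusted p of 0.0042 and an adjusted p of 0.962.

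*Hand2os1*, a long noncoding RNA read from the opposite strand, passed as well. It was at 71.6, 55.8, and 30.5 CPM in ascending/arch and 1.78, 1.52, and 1.75 CPM in descending SMCs (log2 fold change −4.87, SE 0.33, adjusted p = 0.0305), and its adjusted p was 0.164 without animal 1 and 0.198 without animal 2. Gene models of *Hand2os1* and *Hand2* overlap by 3251 bases, and the library kit does not keep the strand, so that reads of the shared bases cannot be assigned to either gene. The neighbouring noncoding genes *5033428I22Rik* and *Gm34030*, named after their values were seen, overlap each other by 2468 bases and lie 11.1 and 13.6 kb from the start of *Hand2*. *5033428I22Rik* was at 13.6, 9.25, and 6.5 CPM in ascending/arch and 0.537, 0.617, and 0.236 CPM in descending SMCs (log2 fold change −4.40, SE 0.38, adjusted p = 0.0517). *Gm34030* was at 10.6, 7.17, and 2.7 CPM in ascending/arch SMCs and had 0 counts in each descending library. Of 26 genes annotated within 500 kb of *Hand2*, 11 were tested, and these 4 were the ones with an unadjusted p under 0.05. *Sap30*, a chromatin corepressor subunit, *Hmgb2*, a chromatin protein, and *Galnt7*, a glycosyltransferase, lay 166.9, 190.9, and 332.0 kb away with log2 fold changes of −1.17 (SE 1.37), −0.33 (SE 0.23), and −0.59 (SE 0.32), and their libraries overlapped. The plot of the *Hand2* surroundings shows that the large differences were within 14 kb of its start.

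**Figure D1:**
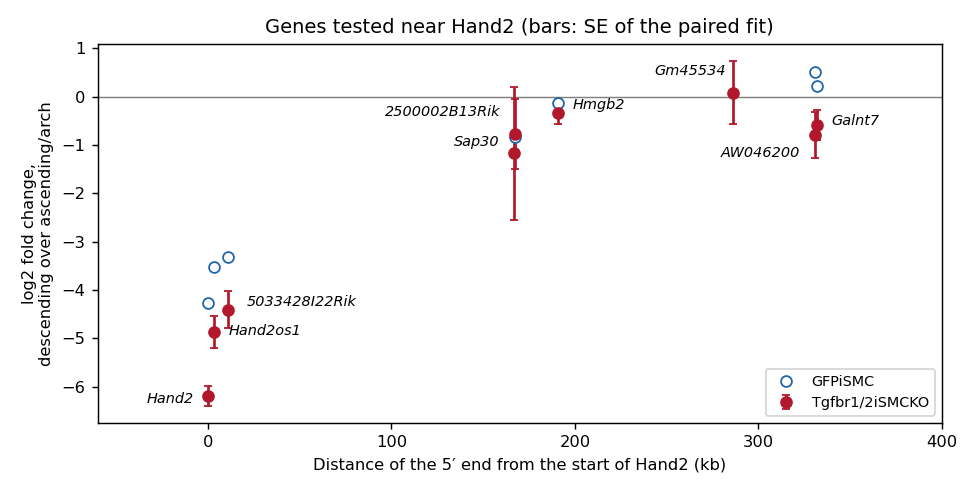
Log2 fold change of descending over ascending/arch SMCs (y axis) against the distance in kb of each tested gene's 5′ end from the start of *Hand2* (x axis), for Tgfbr1/2iSMCKO (filled points, bars are the SE) and GFPiSMC (open points). *Hand2*, *Hand2os1*, and *5033428I22Rik* sit between −6.18 and −4.40 in Tgfbr1/2iSMCKO SMCs, and the genes beyond 160 kb sit between −1.17 and 0.08. *Gm34030*, with 0 counts in all descending Tgfbr1/2iSMCKO libraries, and *Galntl6*, whose 5′ end lies outside the range, are not drawn for either genotype.

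The 250 bases upstream of *Hand2*, *Msx2*, and *Tbx20*, regulators with the higher level in ascending/arch SMCs, and of *Hoxb8*, one with the higher level in descending SMCs, are shown as examples of regulators from each side whose window could be read. They are not the genes with the largest differences, and *Hand2* was the only one of them to pass the test. The sequences are those of RefSeq on GRCm38.p6, written 5′ to 3′ toward the gene. They were read at chr8:57320733-57320982, plus strand (*Hand2*), chr13:53472781-53473030, minus strand (*Msx2*), chr9:24774304-24774553, minus strand (*Tbx20*), and chr11:96281655-96281904, plus strand (*Hoxb8*). Capitals mark CANNTG, the E-box read by helix-loop-helix factors, and TAATTA, a core read by many homeodomain proteins, each of which reads the same on both strands.
Hand2: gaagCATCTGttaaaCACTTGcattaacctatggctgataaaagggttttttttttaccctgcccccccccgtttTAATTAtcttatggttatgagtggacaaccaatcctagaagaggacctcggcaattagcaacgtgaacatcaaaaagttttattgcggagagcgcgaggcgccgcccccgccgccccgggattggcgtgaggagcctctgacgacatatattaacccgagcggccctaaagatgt
Msx2: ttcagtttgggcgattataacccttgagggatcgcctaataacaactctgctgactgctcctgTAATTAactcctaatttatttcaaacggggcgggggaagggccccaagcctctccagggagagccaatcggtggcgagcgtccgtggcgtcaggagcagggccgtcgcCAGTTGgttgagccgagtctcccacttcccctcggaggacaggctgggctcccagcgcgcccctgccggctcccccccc
Tbx20: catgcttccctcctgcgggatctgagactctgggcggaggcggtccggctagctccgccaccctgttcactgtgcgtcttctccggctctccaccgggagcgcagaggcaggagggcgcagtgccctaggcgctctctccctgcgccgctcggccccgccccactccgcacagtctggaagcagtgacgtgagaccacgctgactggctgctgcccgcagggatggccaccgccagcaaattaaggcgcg
Hoxb8: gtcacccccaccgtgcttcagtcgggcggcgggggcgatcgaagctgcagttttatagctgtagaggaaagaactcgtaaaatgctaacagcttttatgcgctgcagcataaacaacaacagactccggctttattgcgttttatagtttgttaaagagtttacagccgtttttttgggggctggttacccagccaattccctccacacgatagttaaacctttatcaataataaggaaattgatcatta
The *Hand2* window held 2 CANNTG and 1 TAATTA, the *Msx2* window held 1 of each, and the *Tbx20* and *Hoxb8* windows held 0 of either. Among all 32851 upstream windows of this length, 66.2% held CANNTG and 4.84% held TAATTA. In RefSeq, the start of *Hand2os1* lies 124 bases upstream of that of *Hand2*, inside the window shown, and the genes run in opposite directions from there.

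*Sla2*, which encodes an adaptor of antigen receptor signaling, was the remaining gene to pass. *Sla2* (ENSMUSG00000027636.11; GRCm38 chr2:156872457-156887192) was at 15.4, 14.8, and 12.1 CPM in ascending/arch and 0.289, 0.247, and 0.168 CPM in descending SMCs (log2 fold change −5.89, SE 0.34, adjusted p = 0.019). In GFPiSMC SMCs, 1 library of each segment was high and the rest were near 0, at 0.146, 0.137, and 23.9 CPM in ascending/arch and 16.2, 0.105, and 0.281 CPM in descending SMCs. The level therefore did not follow the segment there. Its gene model overlaps *Rab5if* on the opposite strand by 1107 bases. With all 12 libraries in the fit, the adjusted p of the Tgfbr1/2iSMCKO difference was 0.84, and it was 0.138 without animal 1 and 0.128 without animal 2. The contribution of shared bases to this result was not tested.

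A list of 59 transcription factors of the outflow tract, arches, and other body regions held 42 tested genes. In it, 2 of the 42 members tested had an unadjusted p under 0.05 with the higher level in descending SMCs and 13 with the higher level in ascending/arch SMCs, beside 1.82% and 2.91% of all genes. The median log2 fold change was −0.42, beside 0.00 for all genes tested. *Dlx5*, a homeodomain factor of the arches, was at 14.2, 7.12, and 17.4 CPM in ascending/arch and 1.41, 0.493, and 1.25 CPM in descending SMCs (log2 fold change −3.64, SE 0.31, adjusted p = 0.0517). *Dlx6*, its neighbour and close relative, was at 4.79, 1.31, and 5.47 CPM against 0.0413, 0.123, and 0.472 CPM (log2 fold change −4.23, SE 0.73). For both genes the lowest ascending/arch library lay above the highest descending one. The model of *Dlx6* overlaps *Dlx6os1* on the opposite strand by 5235 bases, and reads of shared bases cannot be told apart. *Msx2*, a homeodomain factor downstream of BMP signals, was at 10.5, 4.7, and 15.5 CPM against 0.413, 0.864, and 0.168 CPM (log2 fold change −4.38, SE 0.81). *Tfap2b*, a neural crest factor, was at 9.0, 5.18, and 13.3 CPM against 0, 0.37, and 0.101 CPM, and its relative *Tfap2a* was at 3.08, 1.36, and 2.48 CPM against 0.289, 0.781, and 0.573 CPM. For each of these factors all ascending/arch libraries lay above all descending ones.

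*Tbx20*, a T-box factor of the heart and outflow tract, was at 30.6, 30.8, and 23 CPM in ascending/arch and 3.68, 8.68, and 3.74 CPM in descending SMCs (log2 fold change −2.48, SE 0.31, adjusted p = 0.104). *Gata4*, a zinc finger factor of the heart, was at 1.85, 7.9, and 1.29 CPM in ascending/arch SMCs and had counts in 1 of the descending libraries (0.124, 0, and 0 CPM). *Isl1*, a LIM homeodomain factor of the second heart field, was at 3.08, 3.73, and 0.483 CPM against 0.331, 0.247, and 0 CPM. *Prrx2*, a mesenchymal homeodomain factor, was at 11.5, 11.3, and 7.18 CPM against 3.6, 4.32, and 2.56 CPM, and *Sox9*, a factor of cartilage and neural crest, was at 44.5, 28.1, and 45.4 CPM against 21.4, 14.4, and 12.1 CPM (log2 fold change −1.30, SE 0.25). *Tbx15* was at 6.67, 4.17, and 8.17 CPM against 2.65, 3.13, and 3.44 CPM. Of 14 cardiomyocyte markers, 8 were tested, with a median of −0.14. At an unadjusted p under 0.05, 1 was on the descending and 2 on the ascending/arch side, beside 1.82% and 2.91% of all genes. The summed level of the markers was 124 to 236 CPM in ascending/arch and 71.3 to 97.6 CPM in descending libraries. Most of the difference between these sums lay in the thin filament genes *Tnnt2* and *Actc1*. *Tnnt2* was at 45.9, 105, and 56.2 CPM against 12, 5.96, and 19.8 CPM, and *Actc1* at 27.4, 69.8, and 9.07 CPM against 8.76, 27.9, and 2.05 CPM. In each descending library the larger part of the sum came from other markers. *Myl7*, the atrial light chain, had 0 counts in all 6 libraries, *Myl2*, the ventricular one, was at no more than 0.684 CPM, *Nppa* at no more than 0.708 CPM, and *Myh6* was at 0.753, 1.21, and 0.579 CPM against 1.2, 0.822, and 2.09 CPM. The part of cardiomyocytes in the result was not tested.

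Not every regional factor followed that order. *Tbx18*, a T-box factor of mural cells, was at 42.9, 68.2, and 41.1 CPM in ascending/arch and 72.4, 110.5, and 80.3 CPM in descending SMCs (log2 fold change 0.82, SE 0.15), with all descending libraries above. *Gata6*, a GATA factor of vascular SMCs, was at 91.2, 81.2, and 56.6 CPM against 80.7, 85.8, and 64.3 CPM, and *Foxc1*, a forkhead factor of arch development, was at 75.9, 67.9, and 50.9 CPM against 63.9, 91.9, and 58.4 CPM. The libraries of the latter pair overlapped.

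Hox genes had the highest median log2 fold change of all lists. Of 39 Hox genes, 23 were tested, and 9 of these had an unadjusted p under 0.05 with the higher level in descending SMCs (1.82% of all genes did) and 1 with the higher level in ascending/arch SMCs (2.91% of all genes). None passed edgeR's adjustment, whereas DESeq2 called 9 higher in descending SMCs. The median of the list was 0.95. Genes numbered 1 to 4 had a median of 0.19 over 8 tested, and genes numbered 5 and above had a median of 1.67 over 15 tested, a split made after the values were seen.

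In the Hox B cluster (chromosome 11), the fitted difference was larger at each gene from *Hoxb4* to *Hoxb9*. *Hoxb5* was at 12.8, 16, and 29.6 CPM in ascending/arch and 42.5, 29.2, and 45 CPM in descending SMCs, *Hoxb6* at 9.89, 11.1, and 18.8 CPM against 47.8, 23.1, and 59 CPM, and *Hoxb7* at 5.61, 15.9, and 15.6 CPM against 59, 52.9, and 66.8 CPM. The segments overlapped for *Hoxb5* and were separated for the others. Their log2 fold changes were 1.07 (SE 0.26), 1.67 (SE 0.27), and 2.41 (SE 0.34). *Hoxb8* was at 0.376, 0.678, and 1.35 CPM against 5.62, 4.73, and 6.16 CPM and *Hoxb9* at 0.479, 0.727, and 0 CPM against 2.15, 3.04, and 2.16 CPM, with log2 fold changes of 2.92 (SE 0.47) and 3.04 (SE 0.97). Neighbours in this order differed by less than the sum of their SEs for *Hoxb7* with *Hoxb8* and for *Hoxb8* with *Hoxb9*. *Hoxb2*, *Hoxb3*, and *Hoxb4* lay between 0.37 and 0.95, each with an SE of at least 0.28.

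In the Hox A cluster (chromosome 6), *Hoxa7* was at 2.94, 15, and 11.4 CPM in ascending/arch and 71, 59.4, and 82.3 CPM in descending SMCs (log2 fold change 3.11, SE 0.50, adjusted p = 0.177). It was the tested Hox gene with the largest fitted difference, and its ascending/arch level spread over a factor of several between animals, with the lowest in animal 1. *Hoxa9* was at 2.57, 2.13, and 0.901 CPM against 5.74, 5.35, and 9.16 CPM (log2 fold change 1.92, SE 0.53). *Hoxa3* was at 36.9, 33.9, and 39.4 CPM against 29.6, 32, and 36.5 CPM, with overlapping libraries, and *Hoxa2* was the one Hox gene with all ascending/arch libraries above, at 13.5, 15.2, and 24.8 CPM against 9.67, 8.68, and 10.6 CPM (log2 fold change −0.83, SE 0.24). *Hoxaas3*, an antisense transcript that overlaps *Hoxa3* to *Hoxa7* and was named after its values were seen, was at 6.4, 7.36, and 3.83 CPM against 23.6, 20.2, and 16.7 CPM. In the Hox C cluster (chromosome 15), *Hoxc4* was at 0.582, 0.727, and 0.772 CPM against 4.71, 3.37, and 8.25 CPM (log2 fold change 2.90, SE 0.42), and *Hoxc6* was at 0.342, 0.145, and 0.386 CPM against 2.15, 1.48, and 2.22 CPM (log2 fold change 2.78, SE 0.51). Of the 9 Hox D genes (chromosome 2), *Hoxd8* was the one tested, with a log2 fold change of 0.20 and an SE of 1.47. Several Hox models overlap each other or antisense genes, and reads of shared bases cannot be told apart.

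**Figure D2:**
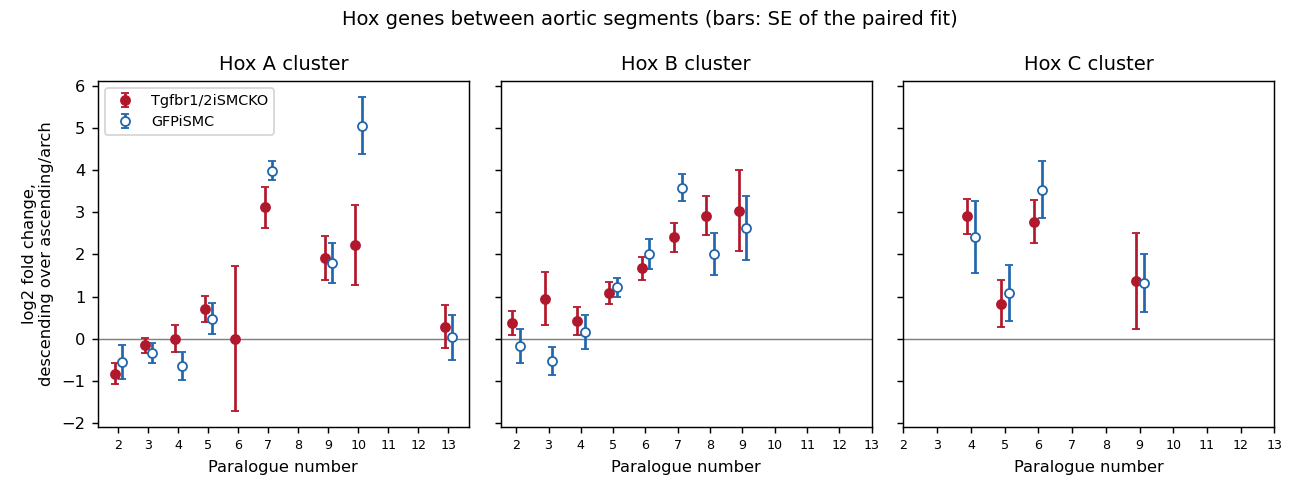
Log2 fold change of descending over ascending/arch SMCs (y axis, bars are the SE) for tested Hox genes numbered 2 and above against their number in the cluster (x axis), in Tgfbr1/2iSMCKO (filled) and GFPiSMC (open) SMCs. In the Hox B cluster the Tgfbr1/2iSMCKO points climb from 0.42 at *Hoxb4* to 3.04 at *Hoxb9*, while *Hoxa2* to *Hoxa4* lie at or below 0, down to −0.83. The Hox D cluster, with 1 tested gene, is not drawn.

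Among 9 TALE cofactors, which bind DNA together with Hox proteins, the median log2 fold change was −0.01, with 1 member on the descending and 1 on the ascending/arch side at an unadjusted p under 0.05. *Meis1* was at 36.6, 65.2, and 89.1 CPM against 50.8, 29.3, and 61.3 CPM, with overlapping libraries. *Meis2* was at 43.2, 54.9, and 70.1 CPM against 33.1, 43.6, and 42.8 CPM, and *Pbx2* was at 4.52, 0.436, and 1.83 CPM against 9.09, 2.84, and 11.9 CPM, also with overlap. In the retinoic acid pathway, which sets Hox activity in the embryo, 0 and 0 of 13 genes tested had an unadjusted p under 0.05 on these sides, and the median was 0.08. Both lists stand beside 1.82% and 2.91% of all genes.

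**Figure D3:**
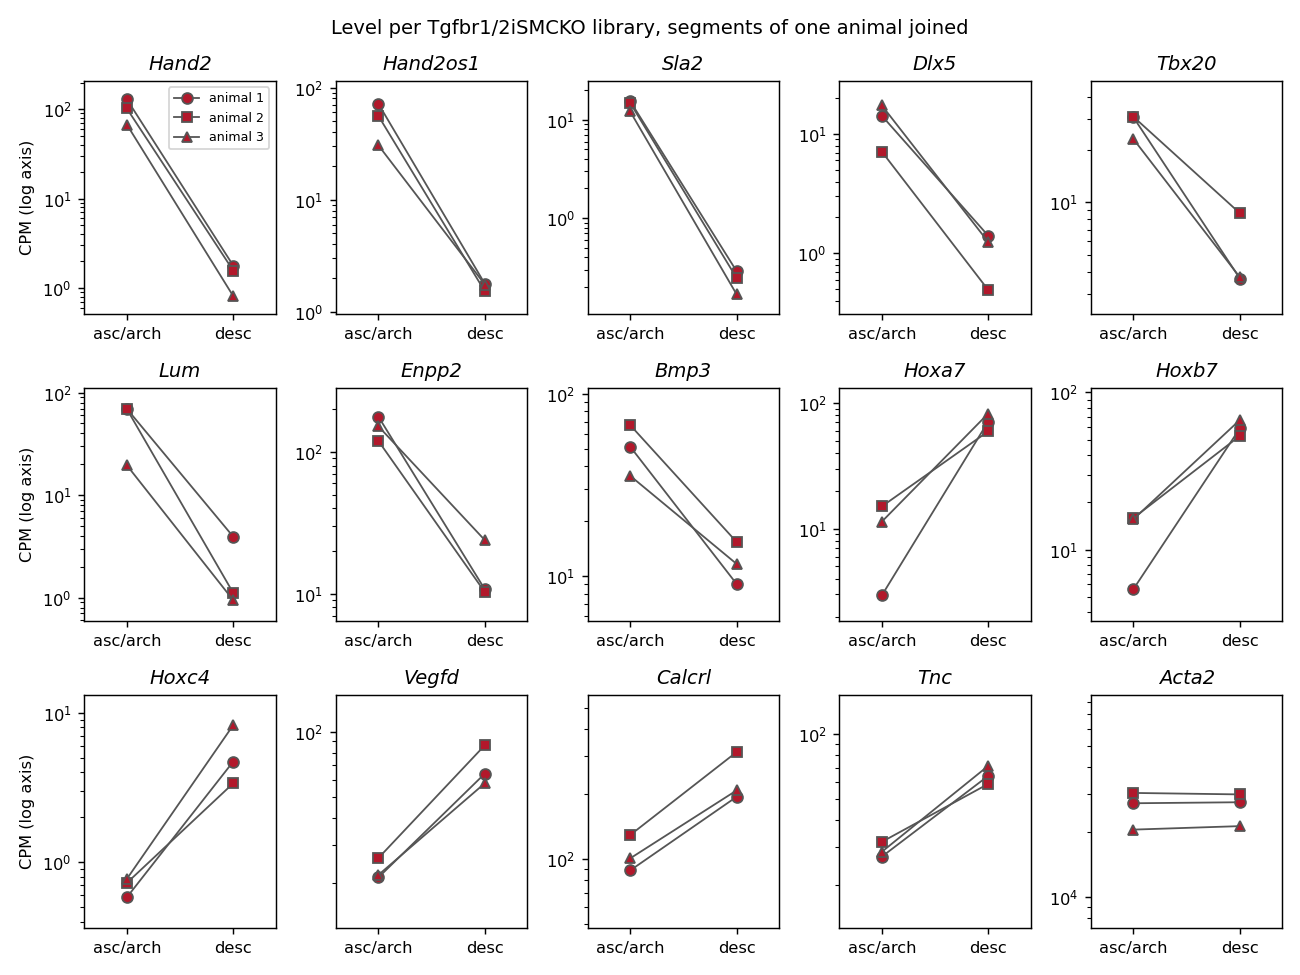
Level in CPM (log y axis, its range differs between panels) of 15 genes in each Tgfbr1/2iSMCKO library, by segment (x axis), with the libraries of one animal joined by a line. From *Hand2* to *Bmp3* all lines go down and from *Hoxa7* to *Tnc* all go up, and for *Acta2* they run level at 20518 to 30325 CPM.

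None of the BMP and Wnt pathway genes passed the test. In the BMP pathway list, 1 of the 35 members tested had an unadjusted p under 0.05 with the higher level in descending SMCs and 4 with the higher level in ascending/arch SMCs (median −0.07), beside 1.82% and 2.91% of all genes. *Bmp3*, a ligand that opposes other BMPs, was at 51.3, 67.3, and 35.5 CPM in ascending/arch and 9.05, 15.4, and 11.7 CPM in descending SMCs (log2 fold change −2.07, SE 0.24, adjusted p = 0.0945), and its closest relative *Gdf10* was at 13.5, 10.4, and 18 CPM against 3.88, 3.78, and 7.88 CPM (log2 fold change −1.47, SE 0.26). *Grem1*, an extracellular BMP antagonist, was at 2.94, 1.55, and 0.579 CPM against 0.207, 0, and 0 CPM, and the libraries of the segments did not overlap. In the Wnt pathway list, 0 of the 41 members tested had an unadjusted p under 0.05 with the higher level in descending SMCs and 6 with the higher level in ascending/arch SMCs (median −0.06), again beside 1.82% and 2.91% of all genes. Secreted Wnt inhibitors were among the latter. *Wif1* was at 111, 115, and 91.2 CPM against 39.5, 49.6, and 42 CPM (log2 fold change −1.26, SE 0.16), *Frzb* was at 36.9, 27.2, and 39.1 CPM against 12.1, 8.64, and 13.3 CPM (log2 fold change −1.59, SE 0.19), and *Sfrp2* was at 361, 157, and 322 CPM against 147, 80.1, and 144 CPM (log2 fold change −1.13, SE 0.13). *Rspo3*, which amplifies Wnt signals, also had its higher level in ascending/arch SMCs, at 16.6, 19.5, and 21.4 CPM against 10.4, 11, and 8.56 CPM. In the Notch list, 0 and 1 of 15 (median −0.18) had an unadjusted p under 0.05 on the descending and the ascending/arch side.

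Among proteoglycans and matricellular proteins, 6 of the 55 members tested had an unadjusted p under 0.05 with the higher level in descending SMCs and 14 with the higher level in ascending/arch SMCs (median −0.20), beside 1.82% and 2.91% of all genes. *Lum*, a small proteoglycan that binds collagen fibrils, was at 69.6, 69.2, and 19.6 CPM in ascending/arch and 3.93, 1.11, and 0.943 CPM in descending SMCs (log2 fold change −4.78, SE 0.41, adjusted p = 0.0517), and *Dcn*, of the same family, was at 119.9, 68.8, and 27.6 CPM against 17.5, 2.3, and 10.4 CPM. *Gpc3*, a glypican of the cell surface, was at 52.2, 36.5, and 49.7 CPM against 11.4, 6.17, and 10.6 CPM (log2 fold change −2.31, SE 0.20, adjusted p = 0.0517). *Chad*, a cartilage matrix protein, was at 6.4, 8.91, and 3.19 CPM against 0.62, 0, and 0 CPM. *Igfbp4* was at 55.9, 25, and 65.5 CPM against 19.7, 9.01, and 25.6 CPM, lower in the descending library of each animal although the segments just overlapped, and *Ccn3* at 1326, 1518, and 1186 CPM against 753, 774, and 626 CPM (log2 fold change −0.89, SE 0.09). The IGF-binding protein *Igfbp5* had the reverse order, at 31, 29.5, and 38.7 CPM against 60.6, 89, and 111 CPM (log2 fold change 1.37, SE 0.19). *Tnc*, the anti-adhesive glycoprotein tenascin-C, was at 27.1, 31.7, and 28.5 CPM against 64.1, 58.8, and 71.3 CPM (log2 fold change 1.16, SE 0.17), and *Ccn5* was at 10.8, 12.4, and 22.7 CPM against 38.1, 25.5, and 57.3 CPM. For these last genes all descending libraries lay above.

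In the elastic fibre and microfibril list, 4 of 23 tested genes had all ascending/arch libraries above all descending ones, and 0 had the reverse. Of all genes, 4.2% and 3.06% did so. Elastin was not separated. Of the elastic fibre and microfibril list, 1 of the 23 members tested had an unadjusted p under 0.05 with the higher level in descending SMCs and 5 with the higher level in ascending/arch SMCs (median −0.15). The shares of all genes, 1.82% and 2.91%, stand beside this and the other counts of matrix genes. *Mfap2*, a microfibril glycoprotein, was at 52.6, 46.2, and 41.4 CPM in ascending/arch and 22.6, 15.5, and 13.5 CPM in descending SMCs (log2 fold change −1.46, SE 0.19, adjusted p = 0.106). *Mfap4*, which binds elastin and collagen, was at 77.2, 70.4, and 69.1 CPM against 48.3, 29.1, and 43.4 CPM (log2 fold change −0.86, SE 0.18). The fibulins *Efemp1* and *Fbln1* were at 12.3, 11, and 12.3 CPM against 4.3, 2.55, and 2.29 CPM and 7.05, 3.78, and 9.94 CPM against 1.16, 0.493, and 0.337 CPM. *Fbln5*, the fibulin needed for elastic fibre assembly, was at 308, 277, and 399.9 CPM against 260.1, 137, and 283 CPM, with overlap. *Eln*, elastin itself, was at 88, 97.7, and 68.8 CPM against 90.5, 49, and 57.3 CPM (log2 fold change −0.39, SE 0.21). For the collagens, 0 and 4 of 36 (median −0.11) had an unadjusted p under 0.05 on the descending and the ascending/arch side, led by the transmembrane collagen *Col23a1* (10.5, 9.83, and 13.1 CPM against 4.5, 3.29, and 4.48 CPM) and the fibril-associated *Col14a1* (28.5, 35.1, and 44.1 CPM against 16.8, 15.7, and 33.6 CPM). *Col1a1* was at 191, 151, and 261 CPM against 162, 139.9, and 261 CPM, with overlap, and *Col3a1* was at 263, 267, and 279 CPM against 219.8, 229.9, and 237 CPM, a small but separated difference (log2 fold change −0.23, SE 0.11). The 17 matrix genes that the study names in its account of these samples, and that are not independent of them, gave 0 and 4 on these sides and a median of −0.23. *Bgn*, biglycan, was at 1216, 1389, and 1445 CPM against 984, 1021, and 1123 CPM, and *Mgp*, an inhibitor of calcification, was at 364, 409.9, and 347 CPM against 241, 309.7, and 271 CPM. For proteinases and their inhibitors the numbers were 3 and 2 of 36 (median −0.05), with *Adamts8*, a proteinase that cleaves proteoglycans, at 8.93, 9.25, and 7.72 CPM against 28.6, 19.5, and 22.9 CPM. For integrins they were 1 and 1 of 18 (median 0.07).

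Fibroblast markers, some of which are matrix genes themselves, also lay more often on the ascending/arch side. Of 14 markers, 13 were tested, 0 had an unadjusted p under 0.05 on the descending (1.82% of all genes) and 5 on the ascending/arch side (2.91% of all genes), and the median was −0.49. Besides *Lum* and *Dcn*, which the list shares with the proteoglycans, *Pdgfra*, the receptor that defines fibroblasts, was at 21.6, 15.8, and 18.4 CPM against 12.3, 7.65, and 7.88 CPM, *Cd34* was at 17.7, 11.7, and 11.8 CPM against 3.8, 4.36, and 5.96 CPM, and *Dpt* was at 4.45, 2.47, and 2.06 CPM against 0.868, 0, and 0.64 CPM. The summed level of the list was 1129, 1014, and 1829 CPM in ascending/arch and 958, 657, and 1504 CPM in descending libraries, lower in the descending library of each animal although the ranges overlapped. In GFPiSMC SMCs it was 2459, 2266, and 2418 CPM and 1856, 1779, and 1649 CPM, and the segments were separated. The adventitial marker *Pi16* was at 1.88, 0.388, and 0.515 CPM against 0.744, 0.452, and 0.438 CPM, and *Clec3b* did not reach the count needed for testing. The part of fibroblasts in the results on matrix and signaling genes was not tested.

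Genes of cartilage formation and calcification had 7 of 22 members with an unadjusted p under 0.05 and the higher level in ascending/arch SMCs, and 0 on the other side (median −0.24), beside 2.91% and 1.82% of all genes. *Sox9*, *Chad*, and *Mgp*, given above, were among them, and so was *Runx2*, a main factor of bone formation, at 4.24, 3.15, and 2.73 CPM against 0.909, 1.56, and 1.72 CPM. *Pthlh*, a hormone of growing cartilage that also relaxes SMCs, stands outside the list and was at 15.9, 10.03, and 18.4 CPM against 3.76, 0.987, and 3.37 CPM (log2 fold change −2.58, SE 0.33).

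Receptors for vasoactive agents had members on both sides. In this list, 4 of the 41 members tested had an unadjusted p under 0.05 with the higher level in descending SMCs and 4 with the higher level in ascending/arch SMCs (median 0.07), beside 1.82% and 2.91% of all genes. *Calcrl*, the receptor subunit for the dilators CGRP and adrenomedullin, was at 88.7, 129, and 101 CPM in ascending/arch and 194, 313, and 208 CPM in descending SMCs (log2 fold change 1.16, SE 0.12, adjusted p = 0.079). *P2rx1*, an ATP-gated channel, was at 32.7, 54.6, and 32.3 CPM against 107, 74.3, and 65.6 CPM, and *Agtr1b*, an angiotensin II receptor, was at 1.16, 1.16, and 2.28 CPM against 2.93, 5.3, and 6.84 CPM (log2 fold change 1.70, SE 0.37). On the other side, *Ednra*, the endothelin receptor of SMCs, was at 28.1, 34.3, and 43.7 CPM against 16.6, 15.2, and 21.5 CPM (log2 fold change −0.98, SE 0.19), and *F2r*, the thrombin receptor, was at 144, 139, and 202 CPM against 97, 95.2, and 120.02 CPM. Among potassium channel genes, 2 and 5 of 40 (median −0.06) had an unadjusted p under 0.05 on the descending and the ascending/arch side, where the shares of all genes were 1.82% and 2.91%. *Kcnj15*, an inward rectifier, was at 67.1, 29.9, and 56.1 CPM against 17.2, 15.8, and 11.7 CPM, and *Kcnt2*, a sodium-activated channel, was at 9.03, 11.1, and 5.34 CPM against 2.03, 1.52, and 2.29 CPM. *Abcc9*, the regulatory subunit of the vascular ATP-sensitive channel, was at 151, 497, and 526 CPM against 536, 720.3, and 621 CPM. Among guidance cues and receptors the numbers were 3 and 3 of 56 (median −0.07), beside the same shares of all genes, with the Slit receptor *Robo1* at 7.7, 6.3, and 9.4 CPM against 0.703, 1.77, and 1.35 CPM and the repulsive cue *Sema3a* at 8.97, 17.7, and 19.8 CPM against 44.3, 22.7, and 43.2 CPM.

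**Figure D4:**
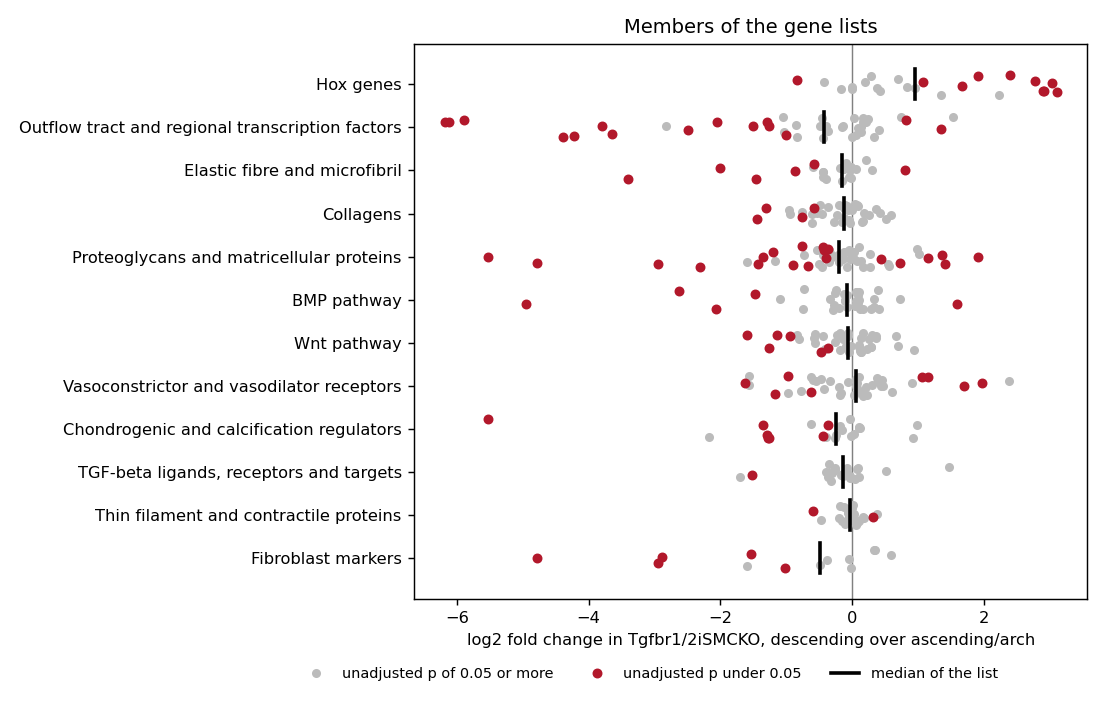
Log2 fold change of descending over ascending/arch Tgfbr1/2iSMCKO SMCs (x axis) for each tested member of 12 gene lists (rows), red where the unadjusted p is under 0.05, with a black bar at the median of the list. Hox genes are spread to the right, with a median of 0.95, while contractile genes lie close to 0, with a median of −0.02. Fitted values at the far left belong in part to genes with few or no descending counts, such as *Gata4* and *Chad*, and are not measured folds.

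Contractile genes had a median near 0, and for the list of TGF-β signaling it was −0.13. In the contractile list, 1 of the 30 members tested had an unadjusted p under 0.05 with the higher level in descending SMCs and 1 with the higher level in ascending/arch SMCs (median −0.02). The shares of all genes, 1.82% and 2.91%, stand beside this count and the other counts here. *Acta2*, smooth muscle actin, was at 27167, 30325, and 20518 CPM in ascending/arch and 27465, 29853, and 21294 CPM in descending SMCs (log2 fold change 0.03, SE 0.06), *Myh11*, smooth muscle myosin, was at 2828, 2979, and 3679.5 CPM against 3029, 2738, and 3926 CPM (log2 fold change 0.03, SE 0.08), and *Tagln* was at 3944, 5176, and 3796 CPM against 4368, 4464, and 4069 CPM. *Myocd*, the coactivator that switches on contractile genes, was at 142, 148, and 274 CPM against 161, 199.98, and 343 CPM (log2 fold change 0.33, SE 0.12), higher in the descending library of each animal although the groups overlapped. In the list of TGF-β ligands, receptors, and targets, 0 of the 23 members tested had an unadjusted p under 0.05 with the higher level in descending SMCs and 1 with the higher level in ascending/arch SMCs (median −0.13). The target genes *Smad7* and *Ccn2* had log2 fold changes of 0.05 (SE 0.20) and −0.34 (SE 0.19). *Tgfbr1* had one of 0.09 (SE 0.12) and *Tgfbr2* one of −0.31 (SE 0.14). Immediate early genes, which respond within minutes to handling of tissue, gave 0 and 5 of 25 (median −0.25) on the descending and the ascending/arch side, with *Nr4a1* at 35, 153, and 29.6 CPM against 24.2, 67.3, and 18.8 CPM, lower in the descending library of each animal.

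Several genes outside the lists had small p values and were named after their values were seen. *Enpp2*, which makes lysophosphatidic acid, was at 177, 119, and 151 CPM in ascending/arch and 10.7, 10.2, and 23.8 CPM in descending SMCs (log2 fold change −3.40, SE 0.30, adjusted p = 0.0517), and *Lpar1*, a receptor for that lipid, was at 16.4, 9.06, and 7.05 CPM against 2.85, 1.07, and 0.472 CPM (log2 fold change −3.11, SE 0.38, adjusted p = 0.0986). *Npy1r*, the neuropeptide Y receptor, was at 241, 353, and 272 CPM against 111, 162, and 116 CPM, and *Atp1b1*, a sodium pump subunit, was at 39.97, 45.2, and 49.3 CPM against 11.7, 11.8, and 13.3 CPM. On the descending side, *Vegfd*, a lymphatic growth factor, was at 21.1, 26, and 21.7 CPM in ascending/arch and 63.9, 86.5, and 57.7 CPM in descending SMCs (log2 fold change 1.59, SE 0.17, adjusted p = 0.079), and *Zfhx4*, a zinc finger homeobox factor, was at 2.98, 2.28, and 2.77 CPM against 10.1, 15.3, and 13.3 CPM. *Arhgap44*, a GTPase-activating protein, had the largest difference among these, at 1.57, 0.92, and 6.82 CPM against 95.6, 93, and 73.3 CPM (log2 fold change 5.25, SE 0.68, adjusted p = 0.108). As with *Sla2*, its GFPiSMC libraries were split without regard to segment, at 2.96, 1.44, and 59.9 CPM in ascending/arch and 0.843, 43, and 55 CPM in descending SMCs. *Itgav*, the integrin αV subunit of the lists, had such a split within one segment, at 13.1, 10.3, and 16.7 CPM against 127, 11.5, and 167 CPM.

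Endothelial markers summed to 97.8 to 145 CPM in ascending/arch and 116 to 151 CPM in descending libraries. *Cdh5*, the endothelial cadherin, was at no more than 2.7 CPM, a small part of the sum, and the other endothelial markers are not named here. Macrophage and leukocyte markers summed to 36.8, 66.9, and 66.2 CPM in ascending/arch and 20.3, 23.6, and 46.3 CPM in descending libraries. *Cd74*, the class II invariant chain, was at 19.7, 46.3, and 39.1 CPM against 3.88, 9.83, and 16.5 CPM. It made up most of the sum in each ascending/arch library and the smaller part in each descending one. The macrophage marker *Adgre1* was at no more than 0.205 CPM. Adipocyte markers summed to 204 to 392 CPM and 243 to 369.7 CPM, and *Adipoq* was at no more than 0.946 CPM. Of 12 adipocyte markers, 6 were tested, with a median of 0.37, toward descending SMCs. At an unadjusted p under 0.05, 0 were on the descending and 1, *Lpl*, on the ascending/arch side, beside 1.82% and 2.91% of all genes. *Adipoq* and *Lpl* made up a small part of the sum, and the other members are not named here. *Lpl*, lipoprotein lipase, was at 21.6, 22.1, and 25.1 CPM against 5.37, 5.18, and 5.76 CPM (log2 fold change −2.06, SE 0.22, adjusted p = 0.079). Skeletal muscle markers summed to 21.8 to 22.3 CPM and 22.9 to 35.6 CPM, Schwann cell and neuron markers to 34.9 to 51.7 CPM and 26.5 to 38.2 CPM, mesothelial markers to 36.4 to 85.6 CPM and 25.2 to 55.4 CPM, and red blood cell markers to 1.4 to 12.6 CPM and 0.413 to 4.82 CPM. Of 10 mesothelial markers, 5 were tested, with a median of 0.64, toward descending SMCs. The medians were 0.05 for endothelial, −0.46 for macrophage and leukocyte, and 0.24 for skeletal muscle markers. For Schwann cell and neuron and for red blood cell markers they were −0.06 and −1.47. Each of these lists had at most 1 member on either side at an unadjusted p under 0.05, beside 1.82% and 2.91% of all genes. The part of these cells in the results was not tested.

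Most of the larger segment differences of Tgfbr1/2iSMCKO SMCs were in the same direction in GFPiSMC SMCs, which shared no library with them. When the 11188 genes that averaged 100 counts or more were taken, 123 (1.1%) lay over 2-fold higher in ascending/arch SMCs with separated libraries and 62 (0.554%) in descending SMCs. Of these, 122 and 61 were also tested in GFPiSMC SMCs, and 111 of the 122 (90.98%) and 46 of the 61 (75.41%) had the same sign there, beside 53.11% of the 11178 genes of that count tested in both. Across those 11178 genes, the segment differences of the genotypes had a Pearson's r of 0.340 and a Spearman coefficient of 0.137. Genes are not independent replicates, and no test was made of these values. In GFPiSMC SMCs themselves, the same fit called 22 of 19392 genes (0.113%) higher in ascending/arch and 4 (0.0206%) higher in descending SMCs. *Dlx5* had a log2 fold change of −3.64 in Tgfbr1/2iSMCKO and −3.53 in GFPiSMC SMCs, *Tbx20* of −2.48 and −2.79, *Lum* of −4.78 and −3.90, *Hoxa7* of 3.11 and 3.99, and *Vegfd* of 1.59 and 1.88. The sign was opposite in 11 of the 122 and 15 of the 61 genes, of which 3 were named after their values were seen. *B3galt1*, a galactosyltransferase, was at 83.9, 24.7, and 12.3 CPM in ascending/arch and 149, 174, and 131 CPM in descending SMCs of Tgfbr1/2iSMCKO mice, and at 78.2, 167, and 157 CPM against 106, 30.04, and 21 CPM in GFPiSMC SMCs. *Akap5*, an anchor of protein kinase A, was at 0.821, 1.4, and 8.11 CPM against 14.8, 14, and 17.5 CPM and at 35.9, 24.5, and 33 CPM against 19.7, 4.41, and 24.7 CPM. *Acsl1*, which activates fatty acids, was at 73.5, 84.5, and 159 CPM against 31.3, 19, and 66.4 CPM and at 87.3, 12.2, and 88.1 CPM against 126, 70.5, and 94.2 CPM. In each the Tgfbr1/2iSMCKO segments were separated and the GFPiSMC segments overlapped. The models of *B3galt1* and *Acsl1* overlap noncoding genes, and reads of shared bases cannot be told apart.

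**Figure D5:**
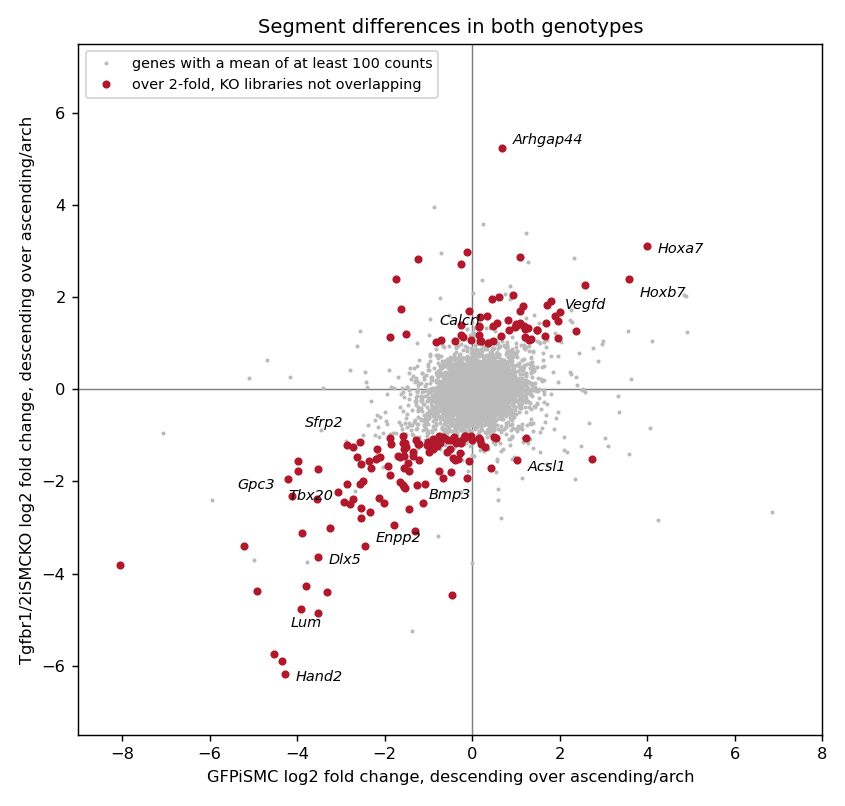
Log2 fold change of descending over ascending/arch SMCs in Tgfbr1/2iSMCKO (y axis) against GFPiSMC (x axis) mice, 1 point per gene that averaged 100 counts or more in the Tgfbr1/2iSMCKO libraries. Red marks a difference over 2-fold with separated Tgfbr1/2iSMCKO libraries, and most red points lie in the lower left, where *Hand2* sits at −4.28 and −6.18, or the upper right, where *Hoxa7* sits at 3.99 and 3.11.

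Whether the segment difference depended on the receptors was tested as the difference of the segment effects over all 12 libraries. By edgeR, 0 of 22320 genes (0%) had an adjusted p under 0.05 and 818 (3.66%) had an unadjusted p under 0.05, and DESeq2 gave 42 genes with an adjusted p under 0.05. *Akap5*, *B3galt1*, and *Acsl1* were among the 42, with adjusted p of 0.000112, 0.000398, and 0.00938 by DESeq2 and unadjusted p of 0.00178, 0.00418, and 0.0033 by edgeR. The 5 genes with the smallest p by edgeR all had an adjusted p of 0.835 in that test. All of them were among the 42 of DESeq2. Its adjusted p was 8.7e-05 for *Pde4dip*, 0.00162 for *Enah*, 4.19e-05 for *Zfp28*, 1.96e-09 for *Rpgrip1*, and 1.38e-06 for *Gpr21*. *Pde4dip*, which encodes a centrosome and Golgi protein, was at 68.1, 74.4, and 106 CPM against 52, 43.6, and 103 CPM in Tgfbr1/2iSMCKO SMCs and at 51.3, 53.6, and 50.9 CPM against 115, 141, and 128 CPM in GFPiSMC SMCs (difference −1.70, SE 0.24). *Enah*, an actin regulator, was at 241, 275, and 225 CPM against 235, 283, and 203 CPM and at 335, 193, and 150.5 CPM against 699, 632, and 668 CPM (difference −1.69, SE 0.27). In both genes the GFPiSMC segments were separated and the Tgfbr1/2iSMCKO segments overlapped. *Zfp28* was at 4.45, 6.1, and 4.15 CPM against 1.49, 4.89, and 5.05 CPM and at 0.659, 0.72, and 0.206 CPM against 7.89, 7.7, and 1.72 CPM (difference −3.89, SE 0.60). *Rpgrip1* was at 31, 0.388, and 1.29 CPM against 30.5, 1.56, and 0.741 CPM and at 24.8, 29.9, and 22.3 CPM against 0.69, 0.385, and 1.36 CPM (difference 5.35, SE 0.81), and *Gpr21* was at 6.3, 2.03, and 6.47 CPM against 6.12, 10.9, and 5.32 CPM and at 4.28, 5.24, and 6.14 CPM against 0.153, 0.245, and 0.2005 CPM (difference 5.31, SE 0.82). *Rpgrip1* overlaps *Supt16* on the opposite strand, and *Gpr21* lies inside other genes on both strands, so that shared bases cannot be assigned.

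Among members of the lists, *Sfrp2* had the smallest p of this test, 0.000849 unadjusted. It was at 456, 411, and 473 CPM in ascending/arch and 60.9, 57.1, and 123 CPM in descending GFPiSMC SMCs, a log2 fold change of −2.57 (SE 0.24), beside −1.13 (SE 0.13) in Tgfbr1/2iSMCKO SMCs. The order of the segments was the same in both genotypes, and DESeq2 gave an adjusted p of 0.027 for the difference. *Hoxb7* had an unadjusted p of 0.0423, the smallest among Hox genes, with log2 fold changes of 2.41 and 3.58 in Tgfbr1/2iSMCKO and GFPiSMC SMCs.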

How the data were processed

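Sorted GFP+ aortic SMCs of Tgfbr1/2iSMCKO and GFPiSMC mice were profiled by bulk RNA-seq, with 3 libraries per genotype and segment. The authors trimmed reads with Trim Galore, aligned them with HISAT2 to GRCm38 (mm10), and derived whole-number gene counts with StringTie and GENCODE annotation, and these counts were deposited as 1 matrix. Over the Tgfbr1/2iSMCKO libraries, a count of 1 occurred 11212 times and a count of 2 occurred 15895 times, so that the lowest counts are not plain tallies of single reads. GENCODE symbols were matched to 52489 of 52636 gene identifiers. Besides the overlaps given above, models of other named genes, among them *Tnc*, *Sfrp2*, *Adamts8*, and *Abcc9*, overlap genes on the opposite strand. Reads of those shared bases cannot be told apart either.

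The 6 Tgfbr1/2iSMCKO libraries were fitted by edgeR 4.0.16 (R 4.3.3) with TMM scaling, filterByExpr, animal and segment as terms, the quasi-likelihood test, and Benjamini-Hochberg adjustment over all genes tested. A call needed an adjusted p under 0.05 and over 2-fold. GFPiSMC libraries were fitted likewise. The difference of segment effects was tested over 12 libraries with the 6 animals as a block. Levels are CPM on TMM-scaled totals, and SEs are derived from the F statistic. The fits were also run on simulated counts. These were drawn without differences between animals, so they cannot show why the tests gave different numbers of calls. Figures were drawn with matplotlib 3.10.9.

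Same-numbered libraries were taken as one animal from the numbers in the labels. Their deviations from the segment means correlated at 0.0583, 0.379, and 0.665 in Tgfbr1/2iSMCKO and 0.185, −0.245, and 0.0290 in GFPiSMC mice, so that not every library went best with its own number. Ascending/arch library 1 of Tgfbr1/2iSMCKO correlated more with descending library 2 (0.399), and GFPiSMC ascending/arch libraries 1 and 2 more with descending libraries 2 (0.27) and 3 (0.277). The pairing rests on the labels and not on these values. Named genes were those past both thresholds, members of the 30 gene lists, the 5 genes with the smallest p for the difference between genotypes, *Tgfbr1*, and *Tgfbr2*. Other genes fell outside these rules, and most of them are said to be named after their values were seen. *Pthlh* and the *Hand2* neighbours *Sap30*, *Hmgb2*, *Galnt7*, and *Gm45534* also fell outside these rules. The comparison, its members, and the lists were chosen with earlier results of these data known. Alternatives were RLE scaling, library size alone, other count filters, DESeq2 1.42.0, limma-voom 3.58.1, a test against 2-fold, all 12 libraries, no block, and each animal left out. Leaving out each GFPiSMC animal from the GFPiSMC fit was added after seeing the data. Some genes of the lists are counted but not reported by name here.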

Additional observations from a re-analysis of the deposited data

How the results depend on the processing

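*Hand2*, *Hand2os1*, and *Sla2* were all called without the block, with RLE scaling, with library size alone, with both other count filters, by DESeq2, by limma-voom, against 2-fold, and without animal 3. With all 12 libraries 2 of the 3 were kept, and without animal 1 or without animal 2 only 1 of the 3 was kept, *Hand2*. The number of Tgfbr1/2iSMCKO genes called higher in descending and in ascending/arch SMCs (0 and 3) became 29 and 79 among the 44952 genes with at least 1 count, 65 and 149 by DESeq2, 4 and 16 by limma-voom, and 1 and 15 with all 12 libraries. With a mean of at least 50 counts it was 13 on the ascending/arch side. Leaving out an animal gave 0 to 9 and 1 to 19, with the highest numbers without animal 3 and 1 on the ascending/arch side without animal 1. The cause of these changes was not tested. Some of these settings alter the number of genes tested or of animals by construction, and whether that changed the calls was not tested either.

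Without the replicate block, 1 gene was called higher in descending and 3 in ascending/arch Tgfbr1/2iSMCKO SMCs, and in GFPiSMC SMCs the unblocked fit called 14 and 59 in place of 4 and 22. The pairing by animal thus changed counts in both genotypes. In GFPiSMC SMCs, DESeq2 called 112 and 196, and leaving out an animal gave 0 to 44 and 0 to 86, with the highest numbers without animal 3, 0 and 0 without animal 1, and 1 and 0 without animal 2. The difference between genotypes (0 genes) became 42 by DESeq2 and 0 to 1 with an animal left out, the 1 being without GFPiSMC animal 3, and it stayed at 0 without the block.

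Of 121 genes followed over 11 alternatives, 109 kept their direction in every alternative that gave them a value, and none of the other 12 had passed the test. With a mean of at least 50 counts, 108 of the 121 had a value, and the test against 2-fold gave counts of calls only. Without the block *Rpgrip1* was at a log2 fold change of −0.01985, and by limma-voom *Hoxd8* was at −0.157. When animals were left out in turn, the lowest and highest log2 fold changes were −0.347 and 0.756 for *Rpgrip1*, −0.342 and 0.526 for *Gm45534*, −1.26 and 1.62 for *Hoxd8*, −0.165 and 1.17 for *Gpr21*, and −0.02839 and 0.357 for *Foxc1*. They were −0.03253 and 0.172 for *Gata6*, −0.0165 and 0.121 for *Tagln*, −0.0864 and 0.185 for *Smad7*, −0.914 and 0.024 for *Zfp28*, −0.09377 and 0.0198 for *Enah*, −0.816 and 0.0251 for *Pi16*, and −2.72 and 0.205 for *Sap30*. The omission that turned the direction was that of animal 1 for *Tagln*, *Smad7*, *Zfp28*, and *Pi16*, of animal 2 for *Rpgrip1*, *Hoxd8*, *Gpr21*, *Foxc1*, and *Gata6*, and of animal 3 for *Gm45534*, *Enah*, *Sap30*, *Gata6*, and *Tagln*. The median of all genes stayed within 0.04 of 0 under each setting. With 3 animals, genes of low count could be read only where they differed greatly.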
